A study of Mus musculus with 2 samples.

Results

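The accessible sites described here lie at 10 mouse genes that encode AP-1 and ATF transcription factors: Fos, Fosb, Fosl1, Fosl2, Jun, Junb, Jund, Atf3, Batf and Maff. An ATAC-seq peak was given to one of them when the protein-coding RefSeq gene end nearest to the peak's summit (mm10 build) was an end of that gene and lay within 100 kb. This placed 35 of the 37725 peaks of R848-treated macrophages and 23 of the 77060 peaks of untreated macrophages at 9 of the 10 genes. Fosl1 was given no peak in either list.

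AP-1 is a pair of basic leucine zipper (bZIP) proteins, most often a Fos protein (c-Fos, FosB, Fra-1 from Fosl1, Fra-2 from Fosl2) bound to a Jun protein (c-Jun, JunB, JunD), which sits on the TPA response element (TRE, TGANTCA) or the cAMP response element (CRE, TGACGTCA). Toll-like receptors reach these genes through MAP kinases, and several of them are immediate early genes that are transcribed within minutes of a stimulus without new protein synthesis. ATF3 is known in macrophages as a brake on Toll-like receptor target genes, BATF pairs with Jun proteins and cooperates with IRF factors, and MafF is a small Maf protein that lacks a transactivation domain.

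The R848 group was 1 library of wild-type bone marrow-derived macrophages cultured with M-CSF at 20 ng/ml and treated for 2 h with 100 ng/ml of R848 (resiquimod), which activates Toll-like receptor 7. The untreated group was 1 library of the same kind of cells, at 0 h of R848. Mouse strain, sex, age and the number of animals are not given in the sources used here. In ATAC-seq the Tn5 transposase cuts and tags open DNA, and sites with an excess of tagged fragments are called as peaks. With 1 library per group there was no replicate spread and no test: each difference below is one between 2 libraries, and intervals cover counting error only.

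The tags at a summit (the fragments piled up there) and the local background around it were recovered from the fold and p-value that the authors' peak caller gave each peak. The lowest background was 1.36 tags in the R848 library and 0.968 tags in the untreated library, a ratio of 1.40, which stands in for relative depth. The smallest peak held 5 tags in the R848 list and 4 in the untreated list, the median peak 8 and 7 tags, and 48.2% of R848 and 36.5% of untreated peaks had a q-value above 0.05. Of 9 macrophage marker genes, 9 had an R848 peak and 8 an untreated peak, while 4 T and NK cell markers had none in either list. B cell markers had an R848 peak at 3 and an untreated peak at 1 of 4 genes, neutrophil markers at 2 and 2 of 4, and stromal markers at 4 and 3 of 4. Cd14 was the macrophage marker without an untreated peak. A peak near a gene is a weak marker of a cell type, since 13801 of 21887 protein-coding genes had one in the R848 list and 15205 in the untreated list; the part of other cells in the results was not tested.

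The promoter windows printed below are the 7 that a peak overlapped, shown because their motifs can be set beside the peaks at the starts. RefSeq windows (GRCm38.p6, 250 bases before to 50 after a start) were found for 9 of the 10 genes, 11 windows in all with 3 for Maff, and none for Fosl1. An R848 peak overlapped 7 windows of 6 genes and an untreated peak overlapped 4 windows of 4 genes. The shares of all windows that a peak overlapped were not computed, so these counts have no background beside them. Within 1 kb of any gene end the R848 list held 7979 peaks and the untreated list 6270. Capitals mark, on either strand, TGACG (the core of the CRE), the TRE variant TGACATCA, CCAAT, the TATAAA box and the NF-kB site.
Fos (chr12:85473640-85473939, plus strand): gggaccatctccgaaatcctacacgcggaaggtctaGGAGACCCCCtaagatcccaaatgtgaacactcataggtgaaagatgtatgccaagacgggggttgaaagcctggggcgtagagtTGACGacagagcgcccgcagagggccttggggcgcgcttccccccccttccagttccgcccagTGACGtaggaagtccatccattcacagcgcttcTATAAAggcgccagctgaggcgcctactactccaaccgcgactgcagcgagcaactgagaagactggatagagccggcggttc
Fosb (chr7:19309996-19310295, minus strand): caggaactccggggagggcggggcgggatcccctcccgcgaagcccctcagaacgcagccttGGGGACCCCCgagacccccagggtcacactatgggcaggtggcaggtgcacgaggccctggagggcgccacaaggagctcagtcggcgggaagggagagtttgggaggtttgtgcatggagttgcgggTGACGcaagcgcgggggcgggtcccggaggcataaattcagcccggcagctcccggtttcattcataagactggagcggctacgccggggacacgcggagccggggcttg
Jun (chr4:95052173-95052472, minus strand): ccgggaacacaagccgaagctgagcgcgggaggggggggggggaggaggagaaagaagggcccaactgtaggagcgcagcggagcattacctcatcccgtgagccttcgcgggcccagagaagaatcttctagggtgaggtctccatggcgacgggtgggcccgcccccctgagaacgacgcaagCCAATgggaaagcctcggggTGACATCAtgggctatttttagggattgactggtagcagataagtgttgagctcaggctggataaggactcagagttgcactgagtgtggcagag
Junb (chr8:84978699-84978998, minus strand): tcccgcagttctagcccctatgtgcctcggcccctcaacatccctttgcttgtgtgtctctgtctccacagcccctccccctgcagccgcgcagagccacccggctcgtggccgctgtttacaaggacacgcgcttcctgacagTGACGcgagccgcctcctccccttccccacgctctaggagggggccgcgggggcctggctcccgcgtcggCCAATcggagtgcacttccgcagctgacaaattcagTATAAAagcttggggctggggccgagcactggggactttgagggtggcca
Atf3 (chr1:191183284-191183583, minus strand): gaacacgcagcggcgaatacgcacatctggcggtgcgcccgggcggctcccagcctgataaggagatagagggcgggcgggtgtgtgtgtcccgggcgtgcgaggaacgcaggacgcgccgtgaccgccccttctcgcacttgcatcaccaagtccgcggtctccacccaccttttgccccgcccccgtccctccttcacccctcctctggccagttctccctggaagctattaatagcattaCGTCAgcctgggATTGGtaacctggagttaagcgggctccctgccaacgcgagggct
Maff window 2 (chr15:79347270-79347569, plus strand): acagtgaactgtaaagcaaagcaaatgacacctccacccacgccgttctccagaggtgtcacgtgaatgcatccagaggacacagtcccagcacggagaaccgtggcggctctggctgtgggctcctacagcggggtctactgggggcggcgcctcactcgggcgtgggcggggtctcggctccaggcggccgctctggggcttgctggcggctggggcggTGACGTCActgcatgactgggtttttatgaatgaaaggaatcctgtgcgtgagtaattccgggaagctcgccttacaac
Maff window 3 (chr15:79348152-79348451, plus strand): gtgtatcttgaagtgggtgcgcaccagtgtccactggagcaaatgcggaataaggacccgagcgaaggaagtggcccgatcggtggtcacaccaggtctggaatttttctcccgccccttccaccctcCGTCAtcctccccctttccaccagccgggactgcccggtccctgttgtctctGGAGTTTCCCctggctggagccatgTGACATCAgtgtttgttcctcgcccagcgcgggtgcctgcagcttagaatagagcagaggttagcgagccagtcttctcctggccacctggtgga

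Each motif was searched on both strands, and its share of the 11 windows was set beside that of all 32851 windows of the table. The CRE core TGACG lay in 7 of the 11 windows, at 6 of 9 genes (Fos, Fosb, Junb, Atf3, Batf and Maff), against 20.8% of all windows. Fos held it at bases -129 to -125 and -66 to -62, counted back from the start. Maff window 2 held the complete CRE, TGACGTCA, at bases -29 to -22, a sequence found in 1.79% of all windows, and the core is part of it. The NF-kB site was in 4 of 11 windows (Fos, Fosb, Fosl2 and Maff window 3) against 4.51%, and GGGCGG, the site of SP factors, in 8 of 11 against 35.7%. TGACATCA, which is known in the Jun promoter as an AP-1 site through which c-Jun acts on its own gene, was in 2 of 11 windows (Jun and Maff window 3, at bases -45 to -38 in both) against 3.62%; it was added to the search after the sequences were seen. TGANTCA and the CArG box of serum response factor were in none of the 11 windows, against 7.81% and 1.63% of all windows. Sequence more than 250 bases before a start was not searched, so a site there would be missed. CCAAT was in 3 of 11 against 37.4% and TATAAA in 2 of 11 (Fos and Junb) against 13.6%. The TATAAA of Fos lay at bases -33 to -28, and that of Junb at bases 1 to 6, at the RefSeq start itself. A match is a description of the letters in the window.

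Across the 10 genes the R848 list held more peaks than the untreated list at 7 genes (Fos, Fosb, Jun, Jund, Atf3, Batf and Maff). It held as many at Fosl2 and Junb, and fewer at none. Of all protein-coding genes 21.2% had more R848 than untreated peaks. Among genes with a peak in either list it was 26.4%, against 7 of 9 here. The 10 genes had 3.50 R848 peaks and 2.30 untreated peaks each, against 1.32 and 2.19 over all protein-coding genes. Peaks found in the R848 list with no untreated peak overlapping them by at least 1 bp (R848-only) numbered 19, at 8 of 10 genes, where 47.2% of all genes had one. Peaks found in the untreated list alone (untreated-only) numbered 6, at 5 of 10 genes, where 56.9% of all genes had one.

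**Figure D1:**
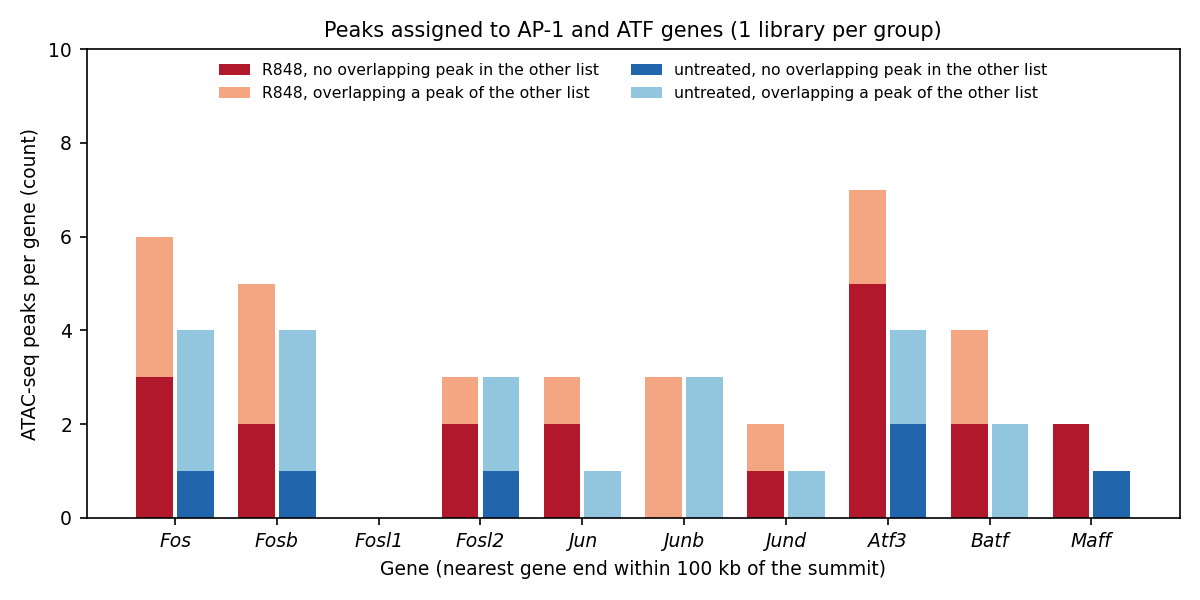
Number of peaks given to each gene, with the R848 list on the left and the untreated list on the right of each pair of bars; dark parts are peaks with no overlapping peak in the other list and light parts overlap one. Atf3 had the most, with 7 R848 and 4 untreated peaks, and Fosl1 had none.

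Among the Fos family genes, Fos, whose product is the classical partner of c-Jun, had 6 R848 peaks of 8 to 25 tags and 4 untreated peaks of 5 to 19 tags. The site 18.6 kb upstream of the start was the strongest of Fos in both lists, with 25 tags in the R848 library and 19 in the untreated library (R848 peak chr12:85454950-85455686), and a site 5.06 kb upstream held 18 and 12 tags. The peak over the start itself was weaker, with 11 tags (fold 3.90, chr12:85473430-85474089) in the R848 list and 7 tags (fold 3.48) in the untreated list. All 3 of these sites were thus present in both libraries. The 3 R848-only peaks of Fos lay downstream of the gene, 8.72, 42.5 and 55.5 kb from its end, with 10, 9 and 8 tags. The untreated-only peak, 12.1 kb past the end, held 5 tags.

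Fosb, which encodes an inducible Fos protein, had 5 R848 peaks of 7 to 12 tags and 4 untreated peaks of 7 or 8 tags. The site inside the gene 1298 bp from the start held 12 tags in the R848 library and 8 in the untreated library, a site at -10.1 kb from the start held 11 and 7, and a site just before the start, which neither peak covered, held 7 and 7. The last was the one site where the libraries gave the same number of tags. Its R848-only peaks held 7 and 8 tags, and the one nearer the start (chr7:19309657-19309856) was 356 bp from an untreated peak. Its untreated-only peak, at -6.61 kb from the start, held 7 tags.

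Fosl2, which encodes Fra-2, had 3 peaks in each list. A single R848 peak of 1031 bp (chr5:32135101-32136131, summit 704 bp before the start) held 21 tags at a fold of 6.18, and beneath it lay 2 untreated peaks of 408 and 500 bp that held 6 tags each at a fold of 3.30. The q-value of both untreated peaks was above 0.05, with a −log10 q of 1.18, and that of the R848 peak was 9.43 on the same scale. The 2 R848-only peaks of Fosl2 lay 10.7 and 34.4 kb past the gene with 6 and 9 tags, and its untreated-only peak of 6 tags lay 14.1 kb upstream.

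Fosl1, which encodes Fra-1, stands in a dense stretch of chromosome 19 with 11 other protein-coding genes within 50 kb. The R848 peak nearest to an end of Fosl1 was 10671 bp away with 7 tags and went to Fibp, and the nearest untreated peak was 22858 bp away with 7 tags and went to Drap1. Within 50 kb of the gene there were 7 R848 and 5 untreated peaks, of which 4 and 2 had no partner in the other list. Fos, Fosl2 and Jun by contrast had no other protein-coding gene within 50 kb, Fosb had 7, Junb 8 and Jund 5.

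Among the Jun family genes, Jun, which encodes c-Jun, had the peak with the most tags of all 10 genes in the R848 list. It covered the start (chr4:95051930-95052969, 1040 bp wide) with 47 tags, a 95% Poisson interval of 34.5 to 62.5, and a fold of 9.30. The untreated peak at the same place (727 bp wide) held 19 tags, interval 11.4 to 29.7, with a fold of 6.54. The Jun peak was stronger by p-value than 98.7% of the R848 list and 97.8% of the untreated list. No other untreated peak was given to Jun, and its 2 R848-only peaks lay 42.2 and 53.9 kb upstream with 6 and 9 tags.

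Junb, which encodes a Jun protein that is a weaker activator than c-Jun, had 3 peaks in each list and each R848 peak overlapped an untreated one. The site 1.31 kb upstream held 22 tags in the R848 library and 9 in the untreated library, a pair of peaks that overlap at their edges held 21 and 6, and the site 232 bp past the other end of the gene held 22 and 7. In that edge pair the R848 peak covered the start and the untreated peak did not, and the summits lay 321 bp apart. The R848 values were alike at all 3 sites and above every untreated value. The R848 folds of 3.85, 3.68 and 4.08 stood closer to the untreated folds of 3.55, 2.50 and 3.10 than the tags did, and the local background was 4.98, 4.98 and 4.64 tags in the R848 library and 1.82, 1.80 and 1.58 tags in the untreated library. Over the promoter window of Junb itself lay the R848 peak (chr8:84978529-84978894); the untreated peak lay inside the gene and ended short of the window. With an overlap of at least 50% of the shorter peak asked for, this pair no longer counted as shared. Jund, which encodes the most constitutive of the Jun proteins, had a strong site inside the gene 1.18 kb from its start with 26 tags in the R848 library and 14 in the untreated library, at folds of 6.82 and 6.94. Its R848-only peak, 4.30 kb upstream, held 8 tags.

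Atf3 had the largest set, with 7 R848 peaks and 4 untreated peaks. The start was covered by 27 tags in the R848 library (fold 7.53, chr1:191183120-191183707) and by 12 tags in the untreated library (fold 5.96), and a site 47.4 kb upstream (chr1:191230282-191231008) held 18 and 9 tags at folds of 7.92 and 5.08. Its 5 R848-only peaks put it among the 2.42% of protein-coding genes with 5 or more. They lay 14.8, 18.3, 41.2 and 55.8 kb upstream and 1.65 kb past the other end, with 12, 11, 12, 7 and 7 tags. The q-value was above 0.05 for those with 7 tags, at a −log10 q of 1.17 and 1.03. Atf3 had 3 R848-only peaks at a −log10 q of at least 1.3 in both lists, and 3 with gene ends within 20 kb. The one 41.2 kb upstream (chr1:191224232-191224682, fold 5.51) was the R848-only peak of the 10 genes with the smallest q-value, 5.21 as −log10 q. The one 18.3 kb upstream began 79 bp beyond an untreated-only peak of 7 tags. The other untreated-only peak, 373 bp past the far end of the gene, held 5 tags.

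At Batf the start was not covered in either list, and the sites lay deep in the gene and behind it. A site 11.6 kb into the gene held 10 tags in the R848 library and 6 in the untreated library, and a site 19.0 kb into it held 14 and 4, with folds of 5.03 and 2.54. The R848-only peaks held 8 tags inside the gene, 16.9 kb from the start, and 11 tags 1.77 kb beyond the gene (chr12:85710681-85710985, fold 4.96). Maff was the gene with peaks in both lists and none in common. Its R848 peaks held 7 tags each. The summit of one (chr15:79347442-79347678, fold 3.15) lay on the start of window 2, the window with the complete CRE. The other (chr15:79347945-79348340, fold 3.10) ended before the start of window 3, with its summit at -235 bp from it. The q-value was above 0.05 for both. The untreated-only peak of Maff, in the gene 9.33 kb from the start of window 3, held 8 tags at a fold of 4.57.

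**Figure D2:**
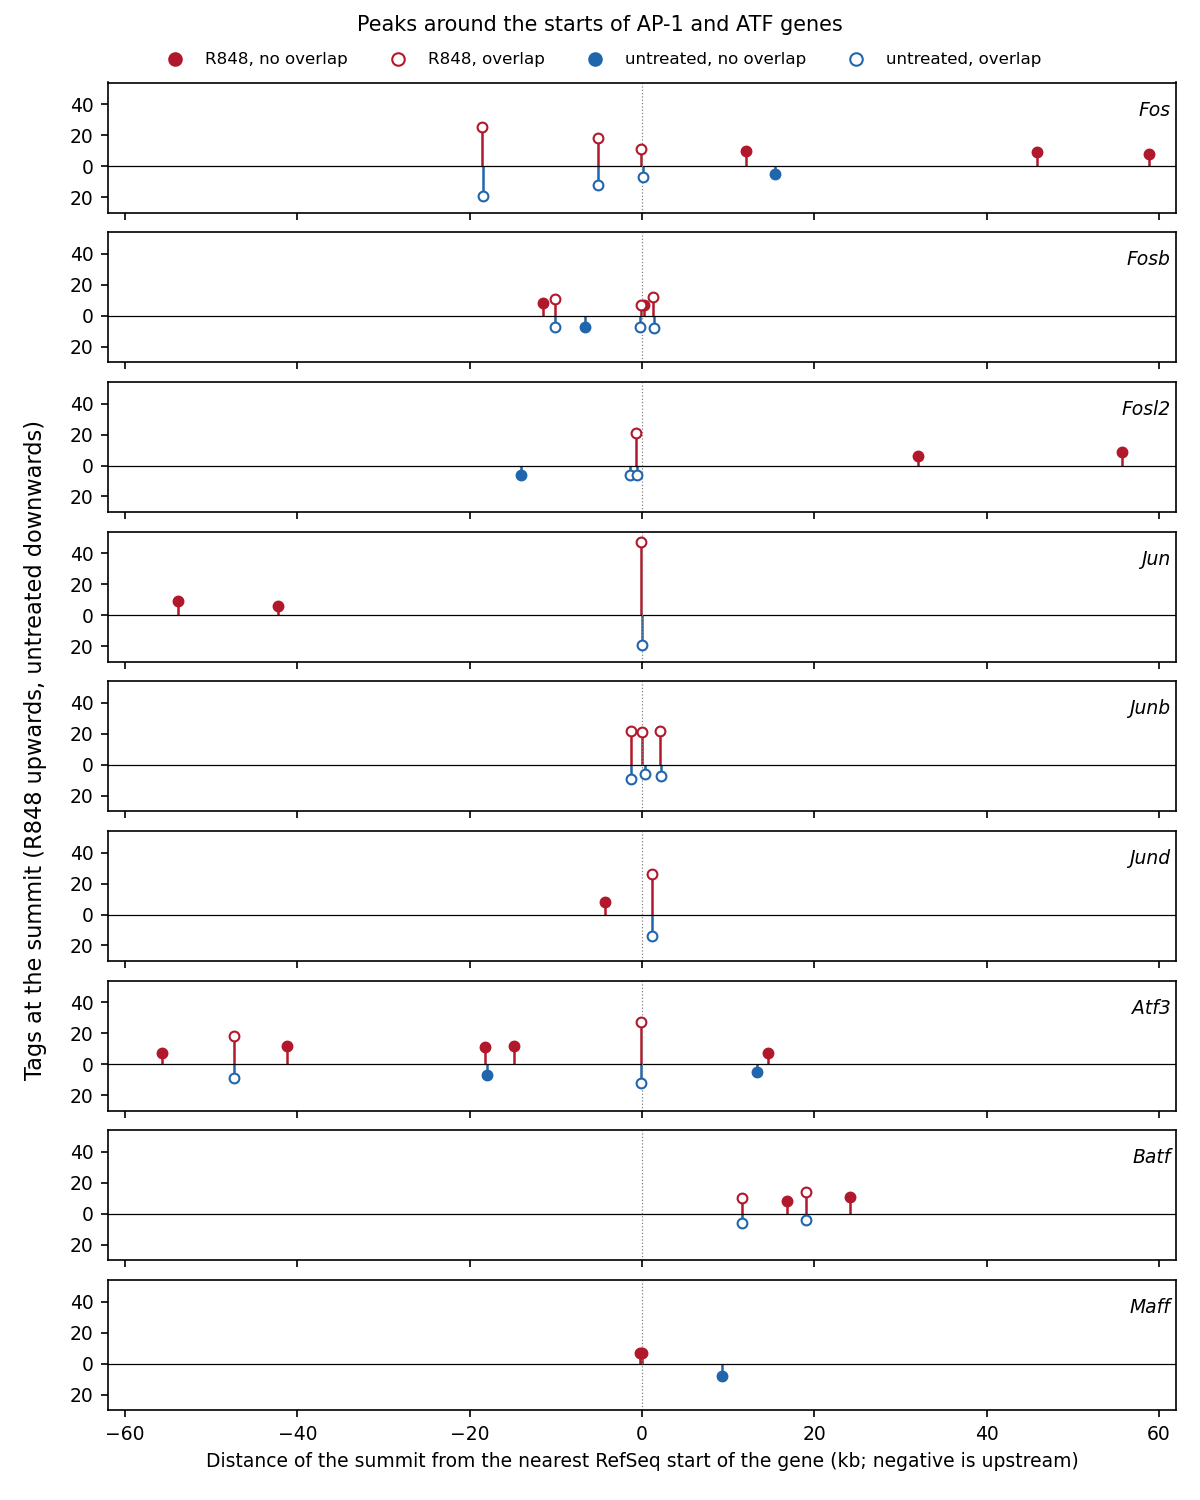
Position of each peak's summit in kb from the nearest RefSeq start of its gene (negative is upstream) against the tags at the summit, R848 upwards and untreated downwards; filled circles have no overlapping peak in the other list. The tallest R848 peaks stand at or near the starts of Jun (47 tags), Atf3 (27 tags) and Jund (26 tags) and are open circles, while the filled R848 circles hold 6 to 12 tags and lie up to 58.8 kb away.

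Set against all peaks, 54.3% of the R848 peaks of the 10 genes were R848-only (95% Wilson interval 38.2 to 69.5%). The share was 69.0% of the whole R848 list and 66.9% of its peaks with a gene end within 100 kb, and the interval reaches both. At a −log10 q of at least 1.3 in both lists it was 57.7% at the 10 genes against 59.6% of all peaks. Untreated-only peaks were 26.1% of the untreated peaks of the 10 genes (12.6 to 46.5%). The share was 84.7% of the whole untreated list and 79.8% of its peaks with a gene end within 100 kb. Most untreated peaks near these genes, 17 of 23, thus had an R848 peak over them. Nearness to gene ends goes with such overlap, and the gap was smaller there: within 1 kb of a gene end 1 of 8 untreated peaks was untreated-only (2.24 to 47.1%) against 24.7% of all peaks in that zone. From over 1 kb to 20 kb it was 5 of 14, or 35.7% (16.3 to 61.2%), against 85.7%. R848-only peaks were 2 of 9 within 1 kb, 10 of 18 from over 1 kb to 20 kb and 7 of 8 beyond, against 41.5%, 76.3% and 77.0% of all peaks in those zones.

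The 19 R848-only peaks held 6 to 12 tags, with a median of 8 and folds of 2.97 to 5.51, and 8 of them had a q-value above 0.05, against 59.1% of all R848-only peaks. The median over all R848-only peaks was 7 tags. The 16 R848 peaks that overlapped an untreated peak had a median of 19.5 tags, against 11 over all such peaks, and 1 of them had a q-value above 0.05, against 23.9% of all such peaks. Untreated-only peaks had 5 to 8 tags. No peak of either list lay close to the 100 kb limit: the farthest inside it were peaks of Atf3, at 55.8 kb in the R848 list and 47.4 kb in the untreated list, and the nearest outside it were peaks 109.2 kb from Jun in the R848 list (15 tags) and 109.5 kb from Jun in the untreated list (6 tags).

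Sites with a peak in both libraries could be compared by their tags. There were 17 overlapping pairs at 8 genes, made from 16 R848 peaks because that of Fosl2 overlapped 2 untreated peaks. The 2 summits lay within 150 bp of each other in 14 pairs. They were 231 bp apart at the start of Fos, 321 bp at the edge pair of Junb and 710 bp at 1 pair of Fosl2. The tags of those pairs come from different positions. The R848 tags were at least 2 times the untreated tags in 9 of 17 pairs, at Jun, Junb, Fosl2, Atf3 and Batf, against 25.6% of all 11814 pairs. With each R848 peak taken once it was 8 of 16. The median ratio was 2.00 (range 1.00 to 3.50) against 1.33 over all pairs. In the pairs within 1 kb of a gene end it was at least 2 in 6 of 8 against 43.7% of all pairs in that zone, and beyond 1 kb in 3 of 9 against 17.1%. Over all pairs the ratio was higher where the untreated peak held few tags, so pairs were also set beside those of like untreated tags: the median ratio was 3.50 against 1.80 for 4 to 6 untreated tags, 1.57 against 1.29 for 7 to 9, and 1.86 against 1.00 for 10 to 20. Over all pairs within 1 kb of a gene end, the zone of 8 of the 17 pairs, the medians for these 3 ranges were 2.00, 1.75 and 1.75, so that of the 10 genes' pairs was above it for 4 to 6 tags, below it for 7 to 9 and close to it for 10 to 20.

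**Figure D3:**
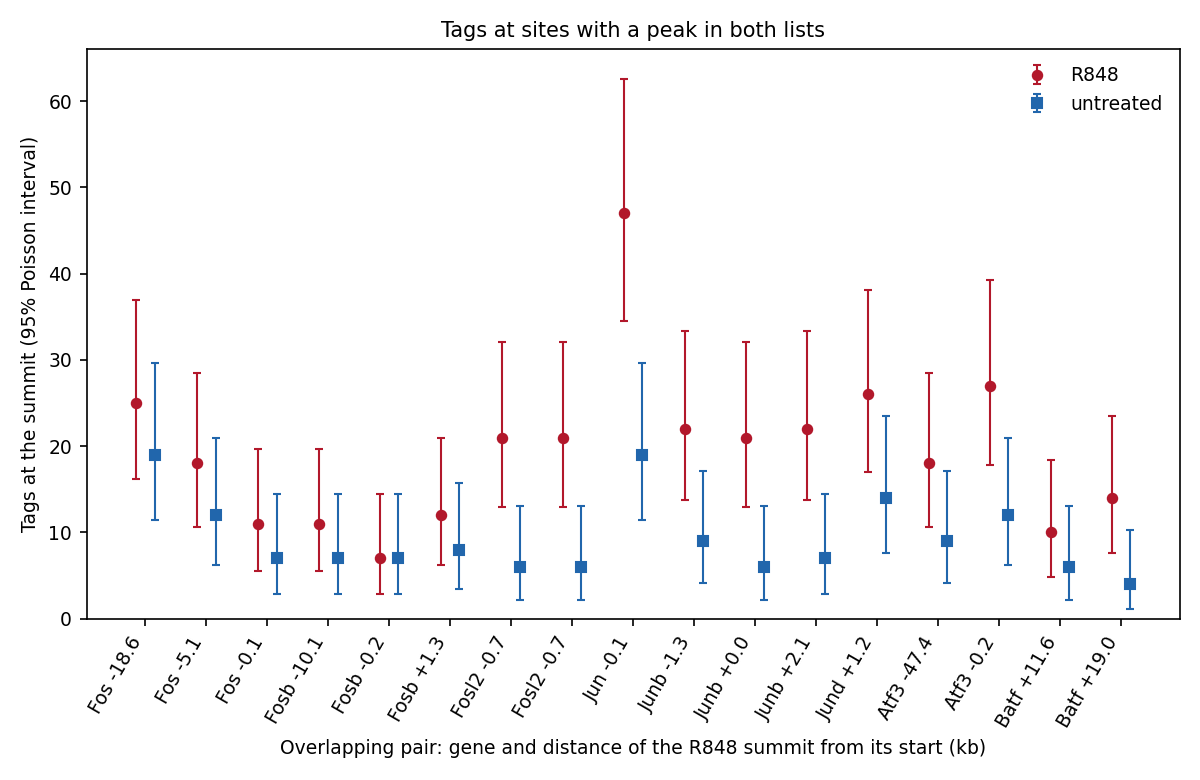
Tags at the summit in the R848 (circles) and untreated (squares) library for each site with a peak in both lists, with 95% Poisson intervals for counting error, labelled by gene and distance from its start in kb; the R848 peak of Fosl2 is drawn beside each of its 2 untreated partners. The R848 value is higher in 16 of 17 pairs and equal just before the start of Fosb, where both are 7. Over all pairs it is higher in 63.3%. Within 1 kb of a gene end it is higher in 7 of 8 pairs, against 91.1% of all pairs in that zone. Beyond 1 kb it is higher in 9 of 9, against 52.9%.

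The counting error of a single pair was wide. The ratio at Jun was 2.47 with an exact interval of 1.42 to 4.46, which lies just above the background ratio of 1.40, and the intervals of the other 16 pairs reached that ratio. At the edge pair of Junb the ratio was 3.50 (1.37 to 10.6), at Fosl2 3.50 (1.37 to 10.6), at the start of Atf3 2.25 (1.10 to 4.88) and at the far upstream site of Fos 1.32 (0.696 to 2.53). These intervals take the summit as given, although the caller chose it as the highest point. The fold divides by the local background. It was higher in the R848 list in 14 of 17 pairs, against 58.5% of all 11888 pairs with a fold. The median fold ratio was 1.28 against 1.08 over all pairs. Much of this gap was absent within 1 kb of a gene end, where the medians were 1.369 and 1.297. In that zone the fold was higher in 7 of 8 pairs against 77.9% of all pairs. Beyond 1 kb it was higher in 7 of 9 against 49.3%, with medians of 1.128 and 0.9925. Over all distances the order of the medians turned when both lists were kept only at a −log10 q of at least 1.3 (1.13 against 1.15) or at least 5 (1.09 against 1.10). The fold was lower in the R848 list at the far upstream site of Fos (0.907), the site just before the start of Fosb (0.818) and Jund (0.982). The local background itself was 2.02 times as high at the median pair, against 1.40 over all pairs, and its part in the tag ratios was not tested.

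**Figure D4:**
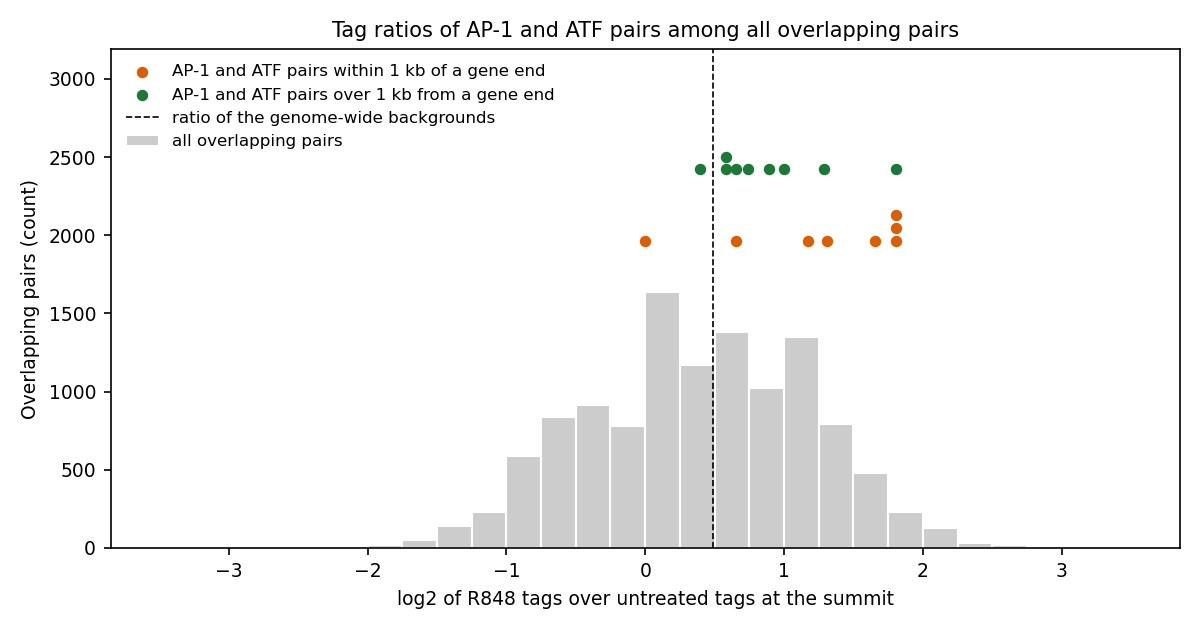
Distribution of the log2 ratio of R848 to untreated tags over all overlapping pairs (grey bars, count of pairs), with the 17 pairs of the AP-1 and ATF genes as points, split at 1 kb from a gene end and placed above the bars for legibility; the dashed line is the ratio of the genome-wide backgrounds. Of the 17 points, 15 lie to the right of the line. The share of all pairs to its right was not counted. The ratio over all pairs had a median of 1.33 and quartiles of 0.857 and 2.00, around the line at 1.40. Over all pairs within 1 kb of a gene end the median was 1.818 and the quartiles 1.375 and 2.388, so most of those pairs also lie to the right.

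Other genes of the pathway were taken from 2 lists. Of 21 other bZIP genes, 13 had an R848-only peak and 10 an untreated-only peak, against 47.2% and 56.9% of all genes. Their R848-only peaks were 35 of 63 (55.6%) and their untreated-only peaks 29 of 57 (50.9%). Over all peaks with a gene end within 100 kb the shares were 66.9% and 79.8%. Bach2, which encodes a bZIP repressor known for its role in lymphocytes, had the most R848-only peaks with 6, followed by its relative Bach1 with 4 and by Batf3, Atf6, Creb5, Maf, Mafg and Nfe2l2 with 3 each. Untreated-only peaks were most numerous at Maf (8), Crem (4) and Creb5 (4). In their 28 overlapping pairs the median tag ratio was 2.10 and 15 pairs (53.6%) reached 2, against 1.33 and 25.6% over all pairs and 2.00 and 52.9% at the 10 AP-1 and ATF genes. Of 19 kinases and serum response regulators, 13 had an R848-only peak and 14 an untreated-only peak, against the same 47.2% and 56.9% of all genes. Their R848-only peaks were 27 of 47 (57.4%) and their untreated-only peaks 23 of 43 (53.5%), against the same 66.9% and 79.8%. Mapkapk2, which encodes a kinase activated by p38, had 6 R848-only peaks, and the MAP kinase kinase genes Map2k3, Map2k4 and Map2k6 had 3 each. Untreated-only peaks numbered 4 at Map2k4 and 3 at Map2k6, and Map2k3, Elk4 and Rps6ka3 were among the genes with 2. In the 20 overlapping pairs of this list the median tag ratio was 1.28 and 3 pairs (15.0%) reached 2, against 25.6% of all pairs.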

How the data were processed

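ATAC-seq had been done on 1 R848-treated and 1 untreated library, amplified for 15 PCR cycles per the labels' protocols. Per the submitters' processing notes, bcl2fastq 2.19, Bowtie2 2.2.6, MACS2 2.2.7.1 and the mm10 build were used. Settings, read filters and read totals: not given in the sources used here. One peak list per library was deposited by the authors. Its fold (a ratio) is the summit pileup over the background of that library, and each peak also has a deposited −log10 p, a deposited −log10 q and a summit position. The deposited score, which equalled the −log10 p multiplied by 10 and rounded down to a whole number in 99.8% of R848 and 99.9% of untreated peaks, was not used.

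Tags and local background were solved from fold = (tags + 1)/(background + 1) and the Poisson tail, within 0.1% of the −log10 p, for 99.8% of R848 and 99.9% of untreated peaks. If both libraries were extended alike, the background ratio reads as relative depth. With a median of 8 (R848) and 7 (untreated) tags, single peaks have low precision. Genes were the 21887 protein-coding genes of RefSeq GRCm38.p6, given without exons, so no peak was placed in an exon or intron. The overlap, assignment and pileup steps were tested on simulated data. Computations ran in Python 3.11.15 with scipy 1.17.1, pandas 2.3.3 and numpy 2.4.6, and plots were drawn with matplotlib 3.10.9.

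All 10 genes are described with every peak. Of the 2 other lists, the 3 genes with the most R848-only and untreated-only peaks, ties included, are named, apart from results that are not reported here. Members, lists and measures were chosen with earlier results of these data known. The tag ratio, its limit of 2, the TGACATCA motif and the nearest-start assignment were added after the data were examined. Alternatives covered the overlap rule, the q minimum, lists of equal length and the assignment.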

Additional observations from a re-analysis of the deposited data

How the results depend on the processing

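With 1 library per group no result was tested, so alternatives show how far counts and medians moved. A q minimum was asked for in both lists, so a peak then also counts as R848-only where its untreated partner fell below the minimum. At a −log10 q of at least 5 the 10 genes had 6 R848-only peaks (54.5% of 11, against 65.0% of all). Untreated-only peaks numbered 0 (0% of 5, against 53.4% of all). Of the peaks that were R848-only in the full lists, 1 reached this minimum, while 10 R848 peaks that overlapped an untreated peak did. With lists of equal length untreated-only peaks numbered 3 (20.0% of 15, against 76.5%). With gene ends within 20 kb R848-only peaks numbered 12 (44.4% of 27). The 69.0% of the whole list is not limited to that reach. Of all R848 peaks, 41.5% were R848-only within 1 kb of a gene end and 76.3% from over 1 kb to 20 kb. With peaks shared out to all genes at most 50 kb away there were 36 R848-only peaks, or 56.2% of 64 against 69.0% of the whole list. Untreated-only peaks then numbered 27, or 48.2% of 56 against 84.7% of the whole list. The other alternatives, which were a gap of up to 500 bp, an overlap of at least 50% of the shorter peak, a −log10 q of at least 1.3, the gene that holds the summit and the nearest transcription start, kept both counts within 1.5 times. At a −log10 q of at least 1.3 the R848-only share was 57.7% of 26, close to the 59.6% of all peaks. The untreated-only share was 31.2% of 16, against 83.7% of all. The median fold ratio ran from 1.09 to 1.28 and the median tag ratio from 1.62 to 2.05 over all settings, with the fold ratio below that of all pairs at both q minimums. Of 180 counts per gene, 131 stayed within 1.5 times, as did 27 of 36 counts of the 2 other lists. No paired analysis was possible because each group has 1 library. The 4 to 9 tags of most untreated peaks limit what a single site can show.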

Other observations

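Several neighbours and partners of the 10 genes had their strongest site in both lists; they were picked after their values were seen. Nfe2l2, which encodes the oxidative stress factor NRF2, held 27 tags in the R848 library and 12 in the untreated library 78 bp from a gene end (R848 peak on chromosome 2 from 75704230 to 75704871). Bach1, which encodes a competitor of NRF2, held 25 and 11 tags at its strongest site, 1 bp from a gene end in the R848 list. Jdp2, which encodes a repressor of AP-1 and lies between Fos and Batf on chromosome 12, held 13 and 8 tags. Batf3, which lies beside Atf3 on chromosome 1, held 13 tags in the R848 library and 17 in the untreated library at a site 12033 bp from the gene in the R848 list, the reverse order. No explanation of these values was tested.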
